A study of Mus musculus with 2 samples.

Results

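The 10 genes described here are Atf4, Ddit3, Trib3, Ddit4, Sesn2, Chac1, Asns, Slc7a11, Slc7a5 and Slc3a2, which belong to the ATF4 response to amino acid shortage. They were chosen by name, and all 10 were found among 20780 protein-coding genes on chromosomes 1 to 19 of the mouse genome build mm10. The assay, ATAC-seq, uses a transposase that cuts accessible DNA and leaves sequencing adapters there, so every value below describes open chromatin and none describes RNA or protein. Open regions were listed as peaks, each with a summit, and a peak was assigned to a gene when that gene had the nearest protein-coding start site within 100 kb of the summit. By this rule 77 of 127423 peaks in the vehicle library and 98 of 179414 peaks in the TAMo library belonged to the 10 genes. Of these, 25 vehicle peaks and 28 TAMo peaks lay within 1 kb of a start site and were called promoter peaks.

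Both libraries came from OT-I CD8+ T cells of wild-type genotype, whose transgenic receptor recognises the ovalbumin peptide OVA257-264. The T cells were kept for 48 h with that peptide and with either vehicle or TAMos, which are CD11b+Ly6G-Ly6Chigh cells taken from the spleens of mice carrying LLC tumors. Both groups therefore carry the same receptor and the same peptide stimulation, and the vehicle culture received no other cells in place of TAMos. About 50000 viable CD8+ T cells were sorted from each culture for 1 library per culture, so no difference below has a replicate check, no test between the cultures was made, and each interval covers counting error only.

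ATF4 is a transcription factor whose translation rises when the initiation factor eIF2 is phosphorylated, as the kinase GCN2 does when uncharged tRNA accumulates. It binds, often with a C/EBP protein, to composite elements in the control regions of genes for amino acid uptake, amino acid synthesis and stress adaptation. Activated T cells take up large amounts of amino acids, and the transporter made of Slc7a5 and Slc3a2 is a main entry route for leucine and other large neutral amino acids.

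The promoters of 9 of the 10 genes were in the RefSeq promoter table (build GRCm38.p6, 250 bases before to 50 bases after the start site), and Slc7a5 was not. The C/EBP-ATF response element was searched as TGATGNAA on both strands, where N is any base. It was found in 4 of the 9 promoters, those of Asns, Chac1, Slc7a11 and Trib3, against 3.97% of all 32851 promoters of the same length. The 4 are shown because they hold the letters that ATF4 is known to bind, and because the lowest promoter ratios below are among them. Each is read 5′ to 3′ in the direction of the gene, and capitals mark the match (TTGCATCA and TTACATCA are matches on the other strand).
Asns, chr6:7693160-7693459, minus strand: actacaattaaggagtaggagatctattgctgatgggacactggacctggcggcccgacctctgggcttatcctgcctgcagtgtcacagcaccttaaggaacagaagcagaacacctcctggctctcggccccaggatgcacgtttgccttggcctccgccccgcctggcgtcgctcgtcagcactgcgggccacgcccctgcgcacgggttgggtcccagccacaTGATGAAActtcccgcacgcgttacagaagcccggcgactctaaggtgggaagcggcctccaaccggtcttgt
Chac1, chr2:119350992-119351291, plus strand: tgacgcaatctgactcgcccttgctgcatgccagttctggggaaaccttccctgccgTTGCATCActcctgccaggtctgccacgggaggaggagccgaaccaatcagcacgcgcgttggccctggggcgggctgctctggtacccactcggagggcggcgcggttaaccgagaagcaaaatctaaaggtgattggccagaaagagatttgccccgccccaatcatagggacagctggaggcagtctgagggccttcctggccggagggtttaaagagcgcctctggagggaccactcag
Slc7a11, chr3:50443564-50443863, minus strand: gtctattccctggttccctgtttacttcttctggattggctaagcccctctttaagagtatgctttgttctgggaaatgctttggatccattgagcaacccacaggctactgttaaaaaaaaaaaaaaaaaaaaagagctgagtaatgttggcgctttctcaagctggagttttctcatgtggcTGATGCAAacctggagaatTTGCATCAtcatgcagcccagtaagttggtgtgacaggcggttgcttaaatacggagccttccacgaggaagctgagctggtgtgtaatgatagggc
Trib3, chr2:152344011-152344310, minus strand: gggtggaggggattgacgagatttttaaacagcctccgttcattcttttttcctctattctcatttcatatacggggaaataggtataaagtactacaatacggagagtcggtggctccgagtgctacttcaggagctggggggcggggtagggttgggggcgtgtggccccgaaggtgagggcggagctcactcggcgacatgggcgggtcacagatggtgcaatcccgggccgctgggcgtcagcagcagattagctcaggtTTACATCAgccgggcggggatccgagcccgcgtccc
The match in Asns starts 23 bases before the RefSeq start site, and its centre lay 14 bp from the promoter summit in vehicle and 26 bp in TAMo. In Chac1 the match starts 193 bases before the start site, 59 bp from the vehicle summit and 54 bp from the TAMo summit. Slc7a11 has 2 matches, which start 66 and 47 bases before the start site. In Trib3 the match starts 14 bases after the start site, while the strongest promoter summit lay 444 bp away in vehicle and 450 bp away in TAMo. These offsets count from the RefSeq start site, whereas summit positions below count from GENCODE start sites. The nearest GENCODE start site is 45 bp away in Asns and 28 bp in Trib3. Relative to it, the Asns match lies downstream and the Trib3 match upstream. All of these matches lay inside a promoter peak of both libraries. The cyclic AMP response element TGACGTCA was in 0 of the 9 promoters (1.79% of all promoters), the CCAAT box in 6 of 9 (37.4%) and the AP-1 letters TGANTCA in 1 of 9, that of Ddit3 (7.81%), each on either strand. These are letter matches within this window only.

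All 10 genes had a promoter peak in both libraries. Over all protein-coding genes, 66.1% had one in vehicle, 68.7% in TAMo and 65.3% in both. To compare levels, the read coverage at each summit was recovered from the deposited fold and −log10 p and divided by the library's most frequent background coverage, 4.71 reads in vehicle and 5.80 reads in TAMo. A promoter ratio is the log2 of TAMo over vehicle for the strongest promoter peak of each library, ranked by the authors' −log10 q, given where these overlap. Of the 9 genes with a ratio, 0 were at least 1.5-fold higher in TAMo, where 9% of all 12926 promoters were, and 2, Chac1 and Asns, were at least 1.5-fold lower, where 3.28% of all promoters were. The median of the 9 log2 ratios was −0.13, against 0.03 over all promoters. The 95% counting interval lay below 0 for Atf4, Ddit3, Chac1 and Asns (17.7% of all promoters) and above 0 for Sesn2 (26.4%). Chac1 and Asns thus stood at the low end of the members and Sesn2 at the high end.

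**Figure D1:**
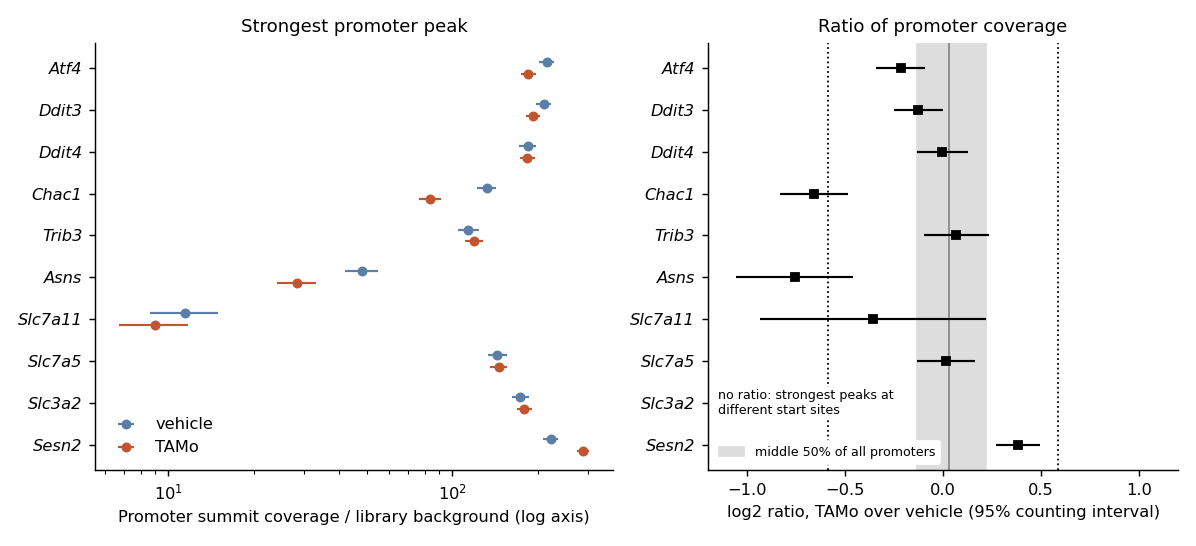
Left, coverage at the strongest promoter summit of each gene, as a multiple of library background on a log axis, in the vehicle library (blue) and the TAMo library (red), with 95% Poisson counting intervals. Right, the log2 ratio of TAMo over vehicle with its 95% counting interval. The grey band spans the middle 50% of all promoters, from −0.13 to 0.22, the grey line is their median and the dotted lines mark 1.5-fold. Chac1 at −0.66 and Asns at −0.76 lie past the lower line, and Sesn2 at 0.38 is the highest of the 9.

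Of the regulators, Atf4 encodes the transcription factor itself. Its promoter summit, 91 bp upstream of the start site in vehicle and 82 bp upstream in TAMo, held 1014 reads in vehicle and 1077 in TAMo, or 215 and 186 times background. The log2 ratio was −0.22 (95% counting interval −0.34 to −0.09), lower in TAMo by less than 1.5-fold, and the local background that the authors' peak caller set around this summit had a scaled log2 ratio of −0.55. This was among the most open promoters of the genome in both libraries. Of promoters with a peak in the same library, 96.7% were weaker in vehicle and 90.7% in TAMo. Ddit3 encodes CHOP, a C/EBP-family factor made under stress. Its promoter held 989 reads in vehicle and 1118 in TAMo, or 210 and 193 times background, with a log2 ratio of −0.13 (−0.25 to −0.00), so its interval ends close to 0. For both genes the direction depended on the scaling. Without it the log2 ratio was 0.087 for Atf4 and 0.18 for Ddit3. Trib3 encodes a pseudokinase that is induced by ATF4 and CHOP and restrains them. Its strongest promoter summit lay in the first intron, 434 bp downstream of the start site in vehicle and 440 bp in TAMo, with 536 and 693 reads (114 and 119 times background). The log2 ratio of 0.07 (−0.10 to 0.23) spans 0.

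Ddit4 and Sesn2 encode stress-induced inhibitors of mTORC1, the growth kinase complex that senses amino acids; Ddit4 acts through the TSC complex and Sesn2 is a leucine sensor. The promoter summit of Ddit4, 101 bp upstream in vehicle and 105 bp in TAMo, held 869 reads and 1068 reads, which is 185 and 184 times background. The log2 ratio was −0.00 (−0.14 to 0.13), so the summit level was alike within counting error. The local background set around the summit was not alike, with 81.3 reads in the vehicle library and 202 in the TAMo library. Its log2 ratio after scaling was 1.01, against a median of −0.02 over all promoters. What nearby peaks contributed to this background was not tested. The Sesn2 promoter summit, 174 bp upstream in vehicle and 196 bp in TAMo, held 1046 and 1681 reads (222 and 290 times background). With a log2 ratio of 0.38 (0.27 to 0.49), Sesn2 was the member promoter most open in TAMo relative to vehicle, and 14.8% of all promoters had a higher ratio. Its local background was also higher in TAMo, by 0.46 on the same scale, so the authors' fold over local background was 11.2 in vehicle and 10.7 in TAMo. Without scaling its log2 ratio was 0.68, past 1.5-fold. In the TAMo library 99.8% of promoters with a peak were weaker than that of Sesn2.

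Chac1 encodes an enzyme that breaks down glutathione, and Asns encodes asparagine synthetase, which makes asparagine from aspartate with glutamine as nitrogen donor. The Chac1 summit, 118 bp upstream in vehicle and 123 bp in TAMo, held 622 reads in vehicle and 486 in TAMo, or 132 and 83.7 times background. Vehicle was the higher library by 1.58-fold (log2 ratio −0.66, −0.83 to −0.48), and 2.41% of all promoters had a lower ratio. The Asns summit, at the start site in TAMo and 12 bp downstream in vehicle, held 226 reads in vehicle and 165 in TAMo, or 48.0 and 28.4 times background. Vehicle was again higher, by 1.69-fold (log2 ratio −0.76, −1.05 to −0.46), with 1.60% of all promoters lower still. At both promoters the local background was lower in TAMo as well, with scaled log2 ratios of −0.93 for Chac1 and −0.96 for Asns, and what that contributed was not tested. The authors' fold over local background was 16.9 in vehicle and 20.1 in TAMo for Chac1, and 16.7 and 18.5 for Asns. It was larger in TAMo for both genes, but this fold ranks peaks within a list only and is not comparable as a level. Without scaling, both summits were still lower in TAMo (log2 ratios −0.36 and −0.45) and neither was past 1.5-fold.

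Among the transporter genes, Slc7a11 encodes the cystine carrier xCT, which pairs with the Slc3a2 protein and supplies cysteine for glutathione. Its promoter was the weakest of the 10, with 54 reads in vehicle and 52 in TAMo (11.5 and 8.96 times background). Of promoters with a peak in the same library, 9.51% were weaker in vehicle and 6.90% in TAMo. The log2 ratio of −0.36 had a wide interval, −0.93 to 0.22, so a difference was not detectable at this depth. Slc7a5 encodes LAT1, the large neutral amino acid transporter. Its promoter summit, 357 bp upstream in vehicle and 359 bp in TAMo, held 679 and 847 reads, or 144 and 146 times background, with a log2 ratio of 0.02 (−0.13 to 0.16). Slc3a2 encodes CD98, the heavy chain shared by both carriers, and it has 3 annotated start sites. Ranked by −log10 q, the first promoter peak was chr19:8713246-8714006 in vehicle (516, against 478 for the other) and chr19:8722813-8723582 in TAMo, so Slc3a2 has no ratio by the rule above. Compared region by region, the log2 ratio was −0.10 (−0.24 to 0.03) at the former, which spans the middle start site, with 818 and 938 reads, and 0.00 (−0.13 to 0.14) at the latter, with 843 and 1043 reads. By coverage the latter was the higher of the pair in both libraries. At the most downstream start site, chr19:8712809-8713202, it was 0.27 (0.12 to 0.43), with 597 and 890 reads.

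Away from promoters the same genes looked different. Overlapping peaks of both libraries were joined into regions, and 63 such regions belonged to the 10 genes, 20 at promoters and 43 distal. Of the 43 distal regions 21 were at least 1.5-fold higher in TAMo (40.2% of all 85125 shared distal regions were) and 3 at least 1.5-fold lower (9.42%). The median log2 ratio was 0.48 for the 43 and 0.38 for all shared distal regions, so the tilt towards TAMo at these loci is close to that of the genome. Of the 20 promoter regions 2 were higher (12.9% of all shared promoter regions) and 2 lower (4.54%). Over all 63 regions, 23 were higher (35.3% of all shared regions) and 5 lower (8.54%). With ratios centred on the median of all shared regions, a shift of 0.28, these counts were 18 and 10. The share of all shared regions past 1.5-fold after that shift is not given here. Ddit4 held 19 of the 63 regions, the most of any member, with 12 higher and 1 lower before centring. Without Ddit4 the counts before centring were 11 and 4.

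**Figure D2:**
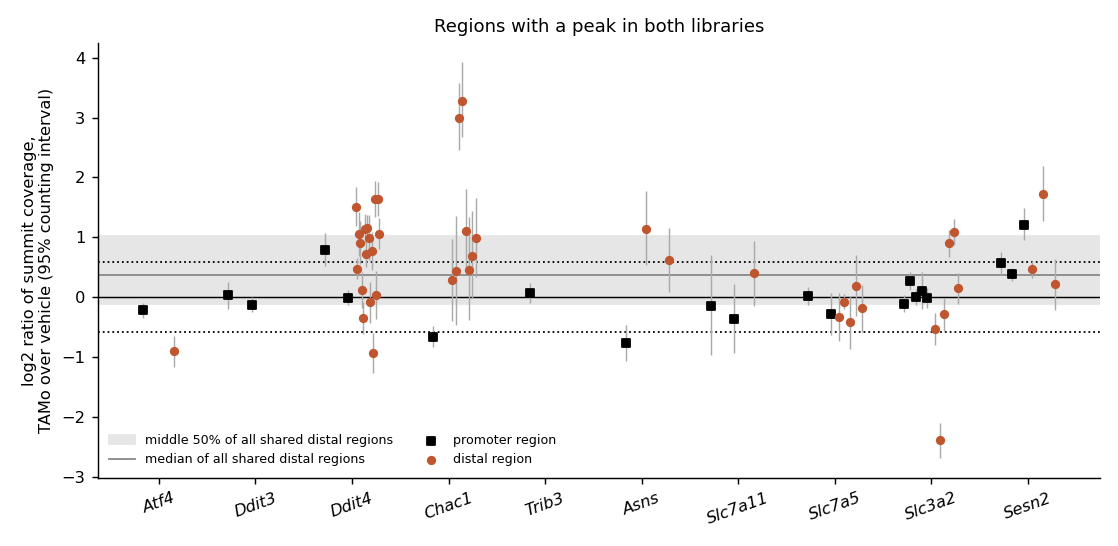
Each point is a region with a peak in both libraries, placed by gene and, within a gene, in order of its distance from the start site, with its log2 ratio of summit coverage (TAMo over vehicle) and 95% counting interval. Squares are promoter regions and circles distal regions. The grey band is the middle 50% and the grey line the median, 0.38, of all shared distal regions, and dotted lines mark 1.5-fold. The Ddit4 and Chac1 loci hold most of the circles above the upper line, and 1 Slc3a2 region lies at −2.38.

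The Ddit4 locus held 23 vehicle peaks and 26 TAMo peaks, more than any other of the 10 genes. It had 19 shared regions, of which 12 were at least 1.5-fold higher in TAMo and 1 lower, where 35.3% and 8.54% of all shared regions were. The highest ratios lay on both sides of the gene. At chr10:59932514-59932984, 19079 bp downstream of the start site, the summit held 114 reads in vehicle and 437 in TAMo, a log2 ratio of 1.64 (1.34 to 1.95). At chr10:59918104-59918525, 33536 bp downstream, it held 135 and 519 reads, again 1.64 (1.36 to 1.92). Upstream, at chr10:59974770-59975180, 23163 bp from the start site, it held 103 and 360 reads, 2.83-fold higher in TAMo (1.18 to 1.83 on the log2 scale). The 1 region that was lower in TAMo, 15594 bp downstream, had 192 and 124 reads (log2 ratio −0.93), but its summits lay 374 bp apart in the libraries. All of these regions are intergenic. Local background had scaled log2 ratios of −0.06 at 19079 bp downstream, 1.12 at 33536 bp downstream and 0.67 at 23163 bp upstream. What it contributed to the summit ratios was not tested.

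Just past the 3′ end of Ddit4 stood a group of 4 TAMo peaks that overlapped no vehicle peak, with summits 2379, 3284, 3681 and 4039 bp downstream of the start site. The strongest, chr10:59948426-59948695, held 795 reads at 137 times background, and the others held 616, 423 and 348 reads. A peak 4331 bp downstream, beside this group, was present in both libraries with 261 and 719 reads (log2 ratio 1.16, 0.95 to 1.37). Its local background had a scaled log2 ratio of 1.07, and the authors' fold over it was 3.60 in vehicle and 3.84 in TAMo. Another TAMo peak without a vehicle partner lay 35817 bp downstream and held 448 reads. The vehicle library had 2 strong peaks of its own close to the gene, 479 bp upstream and 1002 bp downstream in the coding exon, each with 291 reads. Local background at the promoter was higher in TAMo, as given above, and a missing call is not a closed site.

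**Figure D3:**
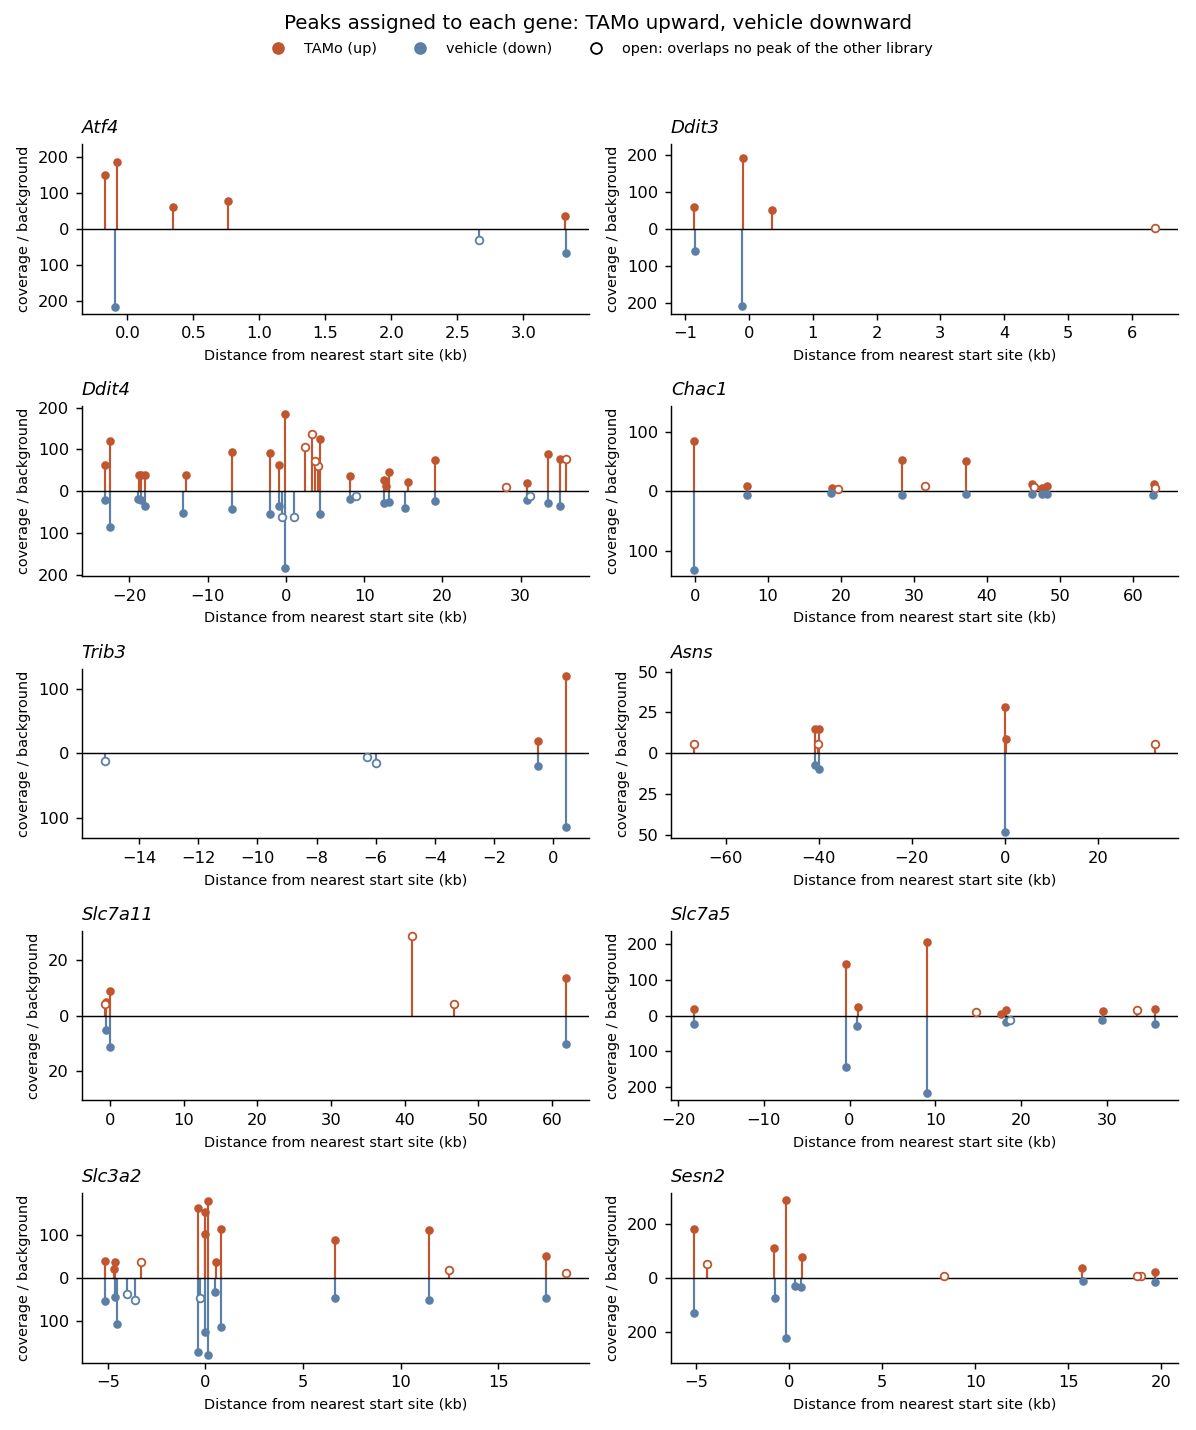
For each gene, every assigned peak is drawn at its distance in kb from the nearest start site of the gene (negative is upstream), with its summit coverage as a multiple of library background upwards for TAMo (red) and downwards for vehicle (blue). Open circles overlap no peak of the other library. At Ddit4 the open red group lies between 2379 and 4039 bp downstream, and at Trib3 all 3 open circles are vehicle peaks.

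Chac1 had 8 shared distal regions, of which 5 were at least 1.5-fold higher in TAMo and 0 lower, opposite to its promoter. Of all shared distal regions 40.2% were higher and 9.42% lower. The largest ratios among all 63 regions were here. At chr2:119379448-119380016, 28426 bp downstream, the summit held 31 reads in vehicle and 304 in TAMo, a log2 ratio of 2.99 (2.46 to 3.57). At chr2:119388157-119388575, 37178 bp downstream, it held 25 and 297 reads, or 3.27 (2.68 to 3.92). Of all shared distal regions, 7.01% were at least 4-fold higher in TAMo. Both regions lie inside the neighbouring gene Ino80, which encodes a chromatin remodelling ATPase, the former over a coding exon and the latter in an intron. They were assigned to Chac1 because its start site is the nearest, so which gene they serve was not tested. The other 4 regions in Ino80, all in introns from 46190 to 62831 bp downstream, had log2 ratios of 1.11, 0.46, 0.70 and 0.99 on 20 to 29 vehicle reads.

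At Asns, a pair of distal regions about 40 kb upstream ran opposite to the promoter. The farther one, chr6:7733748-7734272, held 32 reads in vehicle and 87 in TAMo (log2 ratio 1.14, 0.54 to 1.77), and the nearer one, chr6:7733128-7733401, held 46 and 87 reads (0.62, 0.09 to 1.17). Both were higher in TAMo on few vehicle reads. At Sesn2, 2 of 6 shared regions were at least 1.5-fold higher in TAMo (35.3% of all shared regions), both inside the gene. The summit 687 bp downstream of the start site held 158 and 452 reads (log2 ratio 1.21, 0.95 to 1.48), and that at chr4:132494355-132494950, 15721 bp downstream in an intron, held 50 and 203 reads (1.72, 1.27 to 2.20). In these regions the summits of the libraries lay 87 and 89 bp apart. Local background had scaled log2 ratios of 0.41 and 1.01. At Atf4, the distal region 3312 bp downstream, past the end of the gene, was lower in TAMo, with 320 reads in vehicle and 211 in TAMo (−0.90, −1.16 to −0.65).

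The transporter loci differed from each other. At Slc7a5 the strongest summit of the locus was not the promoter but an intronic site 9025 bp downstream, chr8:121898098-121899065, with 1020 reads in vehicle and 1196 in TAMo, or 217 and 206 times background. Its log2 ratio was −0.07 (−0.19 to 0.05). Of the 7 shared Slc7a5 regions, 0 were past 1.5-fold in either direction, where 35.3% of all shared regions were higher and 8.54% lower. The Slc7a5 regions also overlap Gm20388, a gene model that runs through Slc7a5. At Slc3a2 the distal regions went both ways. At chr19:8727584-8728349, 4664 bp upstream, the vehicle library held 507 reads and the TAMo library 120, a log2 ratio of −2.38 (−2.68 to −2.09), with summits 126 bp apart. The next region, 5162 bp upstream, held 259 and 222 reads (−0.52). Also in this stretch were 2 vehicle peaks without a TAMo partner, 3633 and 4034 bp upstream, with 246 and 173 reads. Downstream of the gene, regions 6649 and 11457 bp from the nearest start site were higher in TAMo, with 224 and 515 reads (0.90, 0.67 to 1.13) and with 245 and 645 reads (1.09, 0.88 to 1.31).

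Peaks called in 1 library only gave a further view. Of the 77 vehicle peaks 12 overlapped no TAMo peak (12.3% of all vehicle peaks near a gene did not), and 5 of these had a −log10 q of at least 20 (1.71% of all vehicle peaks near a gene did). Of the 98 TAMo peaks 26 overlapped no vehicle peak (37.5% of all TAMo peaks near a gene), and 11 of these passed the same bound (12.1% of all TAMo peaks near a gene). Put as sharing, 84.4% of the vehicle peaks (95% Wilson interval 74.7 to 90.9) and 73.5% of the TAMo peaks (64.0 to 81.2) had a partner, against 87.7% and 62.5% of all peaks near a gene. The 11 strong TAMo peaks belonged to Ddit4 (5), Slc7a5 (2), Slc3a2 (2), Slc7a11 (1) and Sesn2 (1), and the 5 vehicle peaks to Ddit4 (2), Slc3a2 (2) and Trib3 (1). The Slc7a11 peak stood out from its locus. At chr3:50402399-50402797, in an intron 41000 bp downstream of the start site, it held 166 reads against 52 at the Slc7a11 promoter of the same library, with an authors' fold of 23.5 over local background. Trib3 was the only member with fewer TAMo than vehicle peaks (5 in vehicle, 2 in TAMo), as were 12.1% of genes with any peak. Its 3 vehicle peaks without a partner lay 5983, 6287 and 15166 bp upstream, the first with 67 reads. The other 9 genes had more TAMo peaks, as did 69.6% of genes with any peak. A higher peak number is not always more open sites. At the Atf4 promoter, 1 vehicle peak with 4 summits was overlapped by 4 TAMo peaks. All 5 Atf4 TAMo peaks overlapped a vehicle peak.

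The rest of the pathway was read from 65 further genes of the ATF4 response and of the unfolded protein response, 60 of which had a promoter ratio. Of the 60, 0 were at least 1.5-fold higher in TAMo and 5 were at least 1.5-fold lower, where 9% and 3.28% of all promoters were, and their median log2 ratio was −0.03, against 0.03 over all promoters. Without scaling, every log2 ratio, of these genes and of all promoters, is 0.30 higher. The counts past 1.5-fold depend on this choice and were not recomputed without scaling. Stc2, a secreted glycoprotein gene, had the lowest, with 43 reads in vehicle and 18 in TAMo (−1.56, −2.44 to −0.73). Phgdh, the entry enzyme of serine synthesis, had 386 and 285 reads (−0.74, −0.97 to −0.52), and Cth, which makes cysteine from cystathionine, had 697 and 528 (−0.70, −0.87 to −0.54). Slc1a5, a glutamine carrier, had 632 and 486 reads (−0.68, −0.85 to −0.51). Sdf2l1, an endoplasmic reticulum chaperone cofactor, had 961 and 782 (−0.60, −0.74 to −0.46). These 5 were higher in vehicle, as Chac1 and Asns were.

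Over all promoters the median log2 ratio was 0.03, with 9% at least 1.5-fold higher in TAMo and 3.28% at least 1.5-fold lower. By group, the 11 serine, one-carbon, proline and transamination enzymes had a median of −0.16 with 2 lower. The 8 amino acid transporters had a median of −0.11 with 1 lower. The 13 tRNA charging genes had a median of 0.02 and the 12 kinases and regulators 0.08, with 0 past 1.5-fold in either direction. The growth and autophagy genes with a ratio numbered 7 (median 0.14, 1 lower), and the endoplasmic reticulum stress genes 9 (median −0.06, 1 lower). Nearest to 0 were Hspa5, the chaperone BiP, with 995 and 1223 reads (−0.00), Mars with 705 and 864 (−0.01), Xpot with 938 and 1173 (0.02) and Eif4ebp1 with 316 and 384 (−0.02).

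**Figure D4:**
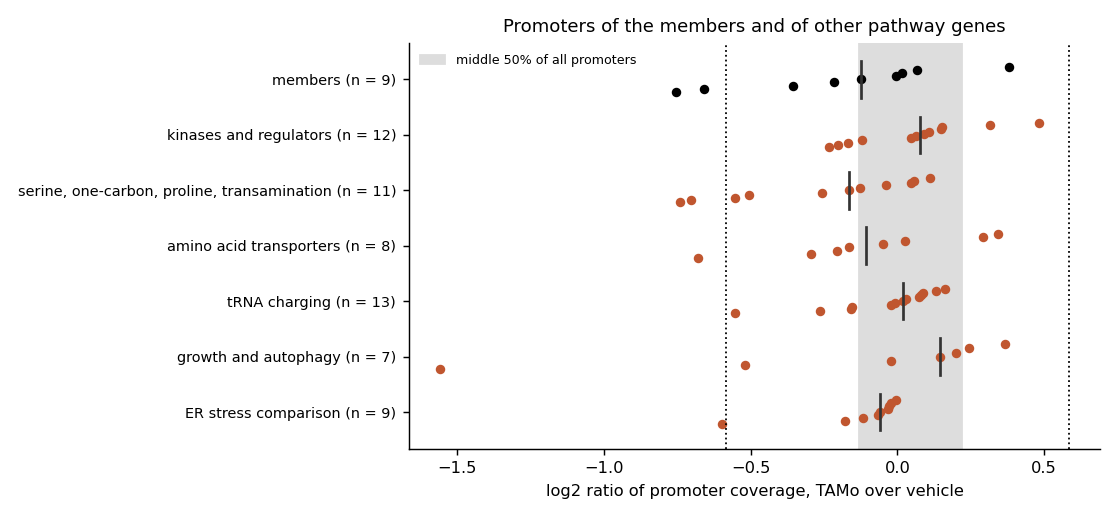
Log2 ratio of promoter coverage, TAMo over vehicle, for each gene of the 9 described in full and of 6 groups of pathway genes (1 point per gene, vertical bars are group medians). The grey band is the middle 50% of all promoters, −0.13 to 0.22, and dotted lines mark 1.5-fold. No point passes the upper dotted line, and the lowest is Stc2 at −1.56.

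Identity of the sorted cells was read from promoter peaks of marker genes. All 10 CD8 T cell markers, Cd8a and Cd3e among them, had one in both libraries, with a summed level of 1208 times background in vehicle and 1192 in TAMo. Of 12 myeloid markers, 4 had a promoter peak in vehicle (Spi1, Cd14, Cd68 and Cebpa) and 7 in TAMo (also Csf1r, Itgam and Fcgr3), with summed levels of 194 and 295.5 times background. The median over the markers with a peak was 40.2 times background in vehicle and 20.3 in TAMo. Cd14 held 141 and 411 reads (log2 ratio 1.24, 0.96 to 1.53) and Spi1 25 and 57 (0.89, 0.18 to 1.63). For Cd68, with 510 and 661 reads (0.07, −0.10 to 0.24), and Cebpa, with 237 and 316 (0.11, −0.13 to 0.36), the interval spans 0. Lyz2, Ly6c2, Ccr2, Tyrobp and Csf3r had none in either library. Of 4 B cell markers, 1 had a promoter peak in vehicle and 2 in TAMo. Ms4a1 had one in both, with 26 and 65 reads (1.02, 0.34 to 1.74), and Pax5 had one in TAMo only, with 30 reads. The summed myeloid level, Cd14, Spi1 and the B cell marker Ms4a1 were higher in TAMo. So were most of the distal regions of Ddit4 and Chac1 past 1.5-fold, as over all shared distal regions (40.2% higher, 9.42% lower). The part of other cell types in those differences was not tested.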

How the data were processed

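ATAC-seq libraries of 1 vehicle and 1 TAMo culture were compared. Trimmomatic 0.36, Bowtie2 and MACS2 were used on build mm10, per the submitters' processing notes. Settings, read shifting and duplicate removal were not given in the sources used here. Peaks were called per library. Each deposited row holds an interval, a summit position, a score (10 times −log10 q, rounded down by the authors' peak caller), a fold ratio over local background, a −log10 p and a −log10 q, as deposited. The authors' fold and −log10 q describe or rank peaks within a list only. A fold given for both libraries is over each library's own local background, so the pair is not a ratio of levels.

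The lists held 163215 and 225656 rows, and rows sharing an interval were counted as 1 peak. Because the fold equals (coverage + 1)/(background + 1) and the p-value is a Poisson tail, coverage could be recovered; 30 vehicle and 48 TAMo rows gave no whole number within 1% of the step between neighbouring coverages and were left out. Median summit coverage was 70 and 83 reads. The recovery was tested on simulated data. Ratios carry 95% exact binomial (Clopper-Pearson) intervals from the reads at both summits; reads are not independent molecules. Start sites came from GENCODE M21. Python 3.11.15, numpy 2.4.6, pandas 2.3.3 and scipy 1.17.1 were used.

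The members, the lists and the rules were chosen with earlier results of these data known. Pathway genes named are those past 1.5-fold (up to 10) and the 4 nearest to 0. Alternatives covered scaling, promoter window, fold, −log10 q bound, list length and assignment. A planned motif search around summits was not run, as no genome sequence was used here. Regions with a peak in 1 list only have no ratio.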

Additional observations from a re-analysis of the deposited data

How the results depend on the processing

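No paired analysis was possible because each culture has 1 library, and no library could be left out. The median member promoter log2 ratio of −0.13 was −0.40 centred on the median of all shared regions, 0.18 without scaling and 0.11 with all summits of the promoter window summed, where Atf4 and Ddit3 were at 0.23 and 0.44 (without scaling 0.087 and 0.18). For the summed value the cause was not tested. Member promoters past the fold were 1 higher at the smaller fold tried, 0 lower at 2-fold, and 1 higher and 0 lower without scaling. Shared regions were 14 higher and 1 lower at 2-fold, 10 lower centred on all shared regions and 3 lower without scaling. Leaving out Ddit4, chosen after seeing the data, gave 11 higher. Pathway promoters were 3 higher and 9 lower at the smaller fold, 1 lower at 2-fold and 9 lower centred on all shared regions. They were not recounted without scaling. Strong peaks in 1 library only were 3 in vehicle and 6 in TAMo at a −log10 q of at least 40, and 19 in TAMo at 10. With lists of equal length, 81.5% of TAMo peaks had a partner. Shares over all promoters, regions or peaks are not given at these other settings, so these counts have no genome value beside them. The other 37 recomputed counts, shares and medians stayed within 1.5 times of the count given or within the interval of the share or ratio. Of 45 recomputed ratios of single promoters, 26 stayed within the interval. Besides the 4 values of Atf4 and Ddit3 given above, the ratios of Ddit4, Trib3, Slc7a5 and Slc7a11, whose intervals span 0, also took either sign (Slc7a11 0.11 with all summits summed), while in every alternative tried Chac1 and Asns stayed below 0 and Sesn2 above 0. Depth limits Slc7a11 and the distal regions with few vehicle reads.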
